A study of Mus musculus with 8 samples.

Results

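Mitochondrial fusion and fission were examined in the fasted liver through the transcripts of 9 genes, which were found by name among the 45706 genes of the count table: Mfn1, Mfn2, Opa1, Dnm1l, Fis1, Mff, Mief1, Mief2 and Rmdn3. All 9 were present, and all 9 passed the filter on low counts that left 14629 genes to be tested. The livers came from 4 WT and 4 SA/SA mice, all female, of strain C57BL/6J, aged 4 months, after an overnight fast, and each mouse gave 1 library. SA/SA mice carry the S155A form of PLIN5, a serine to alanine change made by CRISPR-Cas9 at the endogenous gene. PLIN5 coats lipid droplets in cells that burn fatty acids, and this serine is phosphorylated by PKA. The knock-in is in the whole body and not in hepatocytes alone, and fed mice are not part of these data. In bulk liver, fewer cells of a type and less RNA per cell cannot be told apart.

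Mitochondria join and divide continuously. MFN1 and MFN2 are GTPases of the outer membrane that tether and fuse neighbouring mitochondria, and OPA1 fuses the inner membrane and holds cristae in shape. DRP1, the product of Dnm1l, is a cytosolic GTPase that constricts the organelle. MFF, MIEF1 (MiD51) and MIEF2 (MiD49) recruit it to the outer membrane, and FIS1 has been described as a recruiter as well. RMDN3 (PTPIP51) is an outer membrane protein that tethers mitochondria to the endoplasmic reticulum. In liver, the balance of fusion and division has been linked to the handling of lipid and to the response to nutrients, and PLIN5 lies where lipid droplets and mitochondria meet.

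The genes lie on 8 chromosomes of GRCm38. In GENCODE release M21, Mfn1 is on chromosome 3 from 32529465 to 32579239, Mfn2 on chromosome 4 from 147873599 to 147904704, and Opa1 on chromosome 16 from 29579334 to 29654884. Dnm1l is also on chromosome 16, from 16312230 to 16358959. The recruiters lie on chromosome 5 from 136953275 to 136966234 (Fis1), chromosome 1 from 82724890 to 82752394 (Mff), chromosome 15 from 80234018 to 80253371 (Mief1) and chromosome 11 from 60728398 to 60732951 (Mief2). Rmdn3 is on chromosome 2 from 119137001 to 119157034. Mfn2, Dnm1l and Rmdn3 are on the reverse strand and the others on the forward strand. The longest annotated proteins are alike in length for the mitofusins, 741 amino acids for MFN1 and 757 for MFN2, and for the MiD proteins, 463 for MIEF1 and 454 for MIEF2.

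Several of these genes are annotated with alternative transcripts, among them 10 protein-coding ones of Mff with 10 protein lengths and 6 of Dnm1l with 6 protein lengths. The table gives 1 value per gene, so isoforms of Mff, Dnm1l, Opa1 and Mfn2 were not resolved. Several members overlap other annotated genes. Mfn2 overlaps the pseudogene Gm13156 and Dnm1l overlaps Gm49521, both on the opposite strand. Mff overlaps C430014B12Rik on the opposite strand and Gm28941 on its own strand. Mief1 shares its strand with a small protein-coding gene, AC140267.1, and Mief2 with Mir5100. The libraries were stranded, but whether the counting used strand is not given in the sources used here.

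The 250 bases before the annotated starts were read from RefSeq on GRCm38.p6, which gave 14 windows for the 9 members. A GC box, GGGCGG on either strand, was present in 12 of the 14 windows, against 32.7% of 32851 windows of all genes. Each of the 9 genes had it in at least 1 window, but some genes had more than 1 window. The windows without it were both of Mfn2, at chr4:147904662-147904911 and chr4:147904699-147904948. The windows of Mff overlap each other and hold the same match. Except for 1 window of Fis1 with 5, member windows held more CpG dinucleotides than the median of 6 over all windows. The part of base composition in the matches was not tested. The NRF1 core GCATGCGC was found for Opa1 alone (2.26% of all windows), and the E-box CACGTG for Mief2 alone (6.02% of all windows). The ERR element TCAAGGTCA (0.387% of all windows), the nuclear receptor motif AGGTCA that it contains (14.0%) and the CRE TGACGTCA (1.55%) had no match in the 14 windows. These are matches of letters on both strands and not tested sites. The windows of Opa1 and Mief2 are shown because they held a motif other than the GC box. Mfn2 is shown because it had the highest count of the members. Its window shown is the most upstream, and the only window of Mfn2 with a match. Matches are in capitals, and the sequences are written in the direction of transcription, for Opa1 at chr16:29579084-29579333 (forward strand), Mief2 at chr11:60728148-60728397 (forward strand) and Mfn2 at chr4:147904910-147905159 (reverse strand).
Opa1: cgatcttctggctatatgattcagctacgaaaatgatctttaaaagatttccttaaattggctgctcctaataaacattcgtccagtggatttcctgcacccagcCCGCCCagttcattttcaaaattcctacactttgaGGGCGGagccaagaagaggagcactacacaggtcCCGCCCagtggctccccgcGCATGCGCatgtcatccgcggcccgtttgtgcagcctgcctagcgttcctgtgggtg
Mief2: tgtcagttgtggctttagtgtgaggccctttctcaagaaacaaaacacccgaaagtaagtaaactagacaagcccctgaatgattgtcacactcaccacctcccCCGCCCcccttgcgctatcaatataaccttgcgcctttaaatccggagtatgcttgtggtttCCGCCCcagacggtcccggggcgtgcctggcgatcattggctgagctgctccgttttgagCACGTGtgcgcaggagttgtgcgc
Mfn2: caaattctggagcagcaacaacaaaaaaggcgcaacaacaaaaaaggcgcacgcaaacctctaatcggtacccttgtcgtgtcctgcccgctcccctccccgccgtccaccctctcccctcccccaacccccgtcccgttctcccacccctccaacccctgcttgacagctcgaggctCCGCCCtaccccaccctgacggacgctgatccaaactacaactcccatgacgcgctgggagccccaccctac

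The total estimated count was between 39709785 and 54540864 per library, and the members had between 829 counts (Mff) and 9082 counts (Mfn2) in a library. Hepatocyte transcripts were high in every library, with Alb between 63058 and 97392 CPM (counts per 1000000 counts of a TMM-scaled library). The labels name hepatocytes as the cell type, but markers of other liver cells were present in every library and overlapped between genotypes, with summed levels of 149 to 360.0 CPM for Kupffer cells, 112 to 198 CPM for sinusoidal endothelial cells, 344 to 574 CPM for stellate cells and 27.1 to 85.4 CPM for cholangiocytes. SA/SA replicate 3 stood apart by 10 lymphocyte markers, which summed to 2063 CPM there and to between 19.7 and 46.5 CPM in the 7 other mice. Most of that sum came from the immunoglobulin transcripts Ighm (1164 CPM) and Igkc (806 CPM), followed by Jchain (73.8 CPM). The highest of the remaining markers, Cd79a, reached at most 5.97 CPM in an SA/SA mouse. WT replicate 2 had 38.9 CPM of 7 pancreatic acinar markers where the others had between 4.18 and 6.43 CPM. Plin5, the edited gene, was between 183 and 254 CPM in WT mice and between 192 and 457 CPM in SA/SA mice, and a count per gene does not separate edited from unedited transcripts.

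The question put to the data was whether livers with the S155A form of PLIN5 had other levels of these transcripts after a fast. None of the 9 genes passed an adjusted p of 0.05, with adjusted p between 0.993 and 0.999 (edgeR's quasi-likelihood test, adjusted over all 14629 genes). The background for that threshold was 0% of genes. At an unadjusted p under 0.05 there were 0 of 9 members, against 3.40% of all genes tested. The ranges of WT and SA/SA mice overlapped for every member, where 2.30% of all genes did not overlap. DESeq2 called 7 of the 22309 genes to which it gave a p-value. Limited to the genes kept by the filter on low counts, it called 6 of the 14603 with a p-value. None of these was a member. The folds of SA/SA over WT ran from 0.920 for Opa1 to 1.12 for Mief2. The 95% intervals of all 9 folds lay between 0.788 and 1.36, which is how large a change of these genes the 4 mice per genotype still allow.

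**Figure D1:**
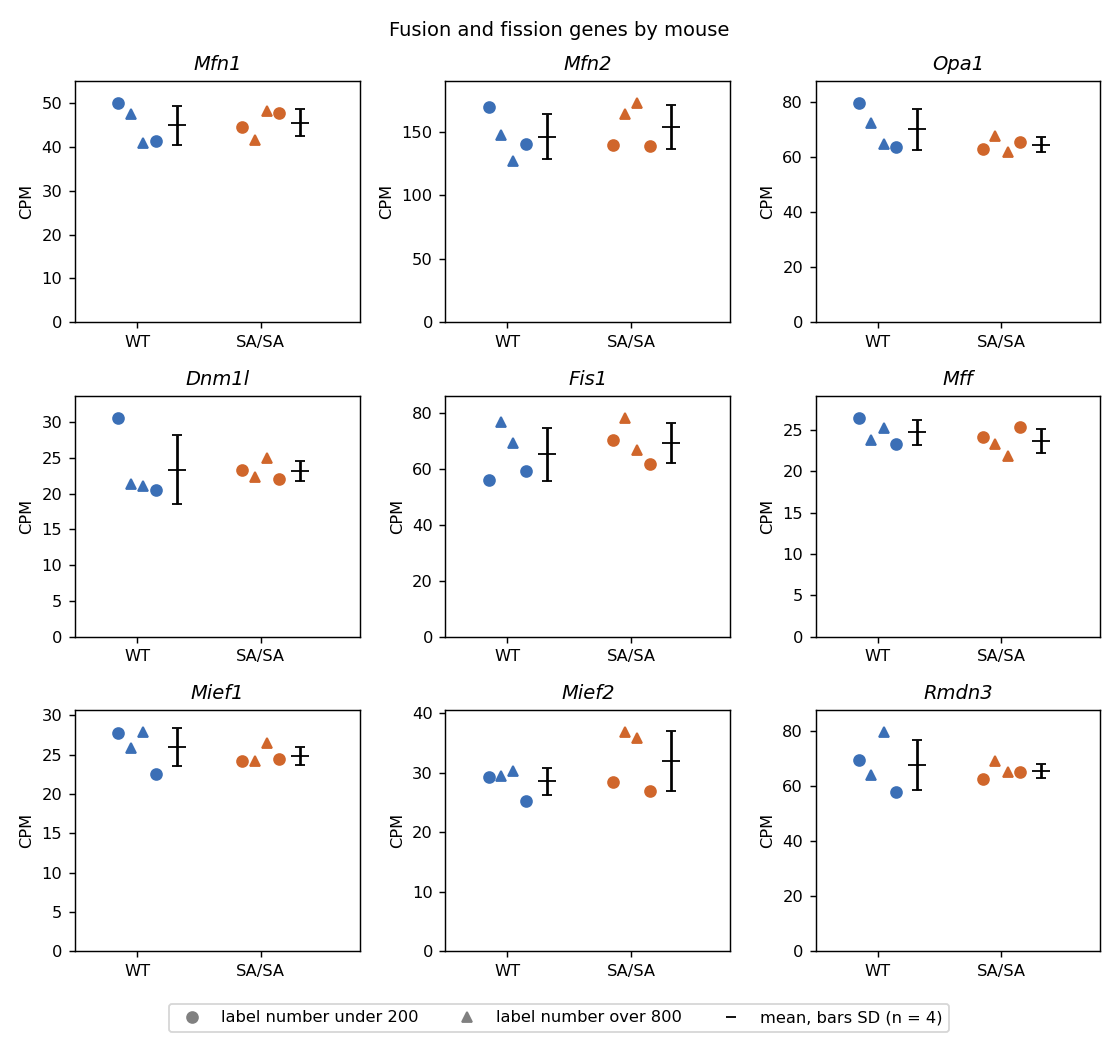
CPM (linear axis from 0) of each of the 9 genes in the 4 WT and 4 SA/SA mice, 1 point per mouse, with the mean and SD (n = 4) to the right of each group. Circles are mice with label numbers under 200 and triangles those over 800. The genotypes overlap in every panel, and 1 WT mouse stands at 30.6 CPM for Dnm1l.

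Among the fusion genes, Mfn1 was at 50.1, 47.5, 41.1 and 41.3 CPM in WT replicates 1 to 4 and at 44.7, 41.7, 48.2 and 47.8 CPM in SA/SA replicates 1 to 4. The lowest and the highest mouse were both WT, and every SA/SA mouse lay between them. The mean was 45.0 ± 4.53 CPM in WT and 45.6 ± 3.03 CPM in SA/SA (SD, n = 4 each), and SA/SA minus WT was 0.020 ± 0.10 in log2 (standard error; adjusted p = 0.998 from edgeR, p = 0.771 by the two-sided exact permutation test). Mfn2 had 169, 147, 127 and 140.2 CPM in the WT mice and 139.8, 164, 173 and 138.5 CPM in the SA/SA mice. Each genotype held mice at both ends of the range. The means were 146 ± 17.7 and 154 ± 17.2 CPM (SD, n = 4 each), and SA/SA minus WT was 0.075 ± 0.12 in log2 (standard error; adjusted p = 0.993 from edgeR, p = 0.571 by the exact permutation test).

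Opa1, the inner membrane fusion gene, was at 79.6, 72.4, 64.5 and 63.5 CPM in WT mice and at 62.8, 67.6, 61.7 and 65.4 CPM in SA/SA mice. WT replicates 1 and 2 were above all SA/SA mice and the other two WT mice lay among them. Its mean was 70.0 ± 7.53 CPM in WT and 64.4 ± 2.66 CPM in SA/SA (SD, n = 4 each), and SA/SA minus WT was -0.12 ± 0.10 in log2 (standard error; adjusted p = 0.993 from edgeR, p = 0.257 by the exact permutation test). This was the lowest fold among the members, 0.920 with a 95% interval from 0.788 to 1.07. Without WT replicate 1 it was -0.048 on the log2 scale.

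Dnm1l, which encodes the fission GTPase, depended most on 1 mouse. The WT mice had 30.6, 21.4, 21.0 and 20.4 CPM and the SA/SA mice 23.2, 22.3, 25.0 and 22.1 CPM. WT replicate 1 was above all other mice and the 3 other WT mice were below all SA/SA mice. The means were nevertheless close, 23.4 ± 4.86 CPM in WT and 23.2 ± 1.34 CPM in SA/SA (SD, n = 4 each), and SA/SA minus WT was -0.013 ± 0.14 in log2 (standard error; adjusted p = 0.999 from edgeR, p = 1 by the exact permutation test). With WT replicate 1 left out, Dnm1l had a log2 fold change of 0.15 (adjusted p = 0.963, unadjusted p = 0.152 from edgeR). The genotypes then no longer overlapped for Dnm1l, 1 of 9 members, where 5.70% of all genes tested without that mouse did not overlap.

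Of the genes for the proteins named above as recruiters of DRP1, none passed the test between genotypes. Fis1 was at 55.9, 76.6, 69.3 and 59.1 CPM in WT mice and at 70.2, 78.4, 66.7 and 61.8 CPM in SA/SA mice. WT replicates 1 and 4 were below every SA/SA mouse and WT replicates 2 and 3 were among them. The mean of Fis1 was 65.2 ± 9.51 CPM in WT and 69.3 ± 6.99 CPM in SA/SA (SD, n = 4 each), and SA/SA minus WT was 0.086 ± 0.13 in log2 (standard error; adjusted p = 0.993 from edgeR, p = 0.457 by the exact permutation test). Mff had 26.5, 23.8, 25.2 and 23.3 CPM in the WT mice and 24.1, 23.3, 21.9 and 25.3 CPM in the SA/SA mice. It was the steadiest of the members, and its highest mouse exceeded its lowest by a factor of 1.21. For Mff the means were 24.7 ± 1.47 and 23.7 ± 1.44 CPM (SD, n = 4 each) and SA/SA minus WT was -0.062 ± 0.094 in log2 (standard error; adjusted p = 0.993 from edgeR, p = 0.429 by the exact permutation test).

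Mief1 and Mief2 encode related DRP1 receptors. Mief1 was at 27.7, 25.8, 27.9 and 22.6 CPM in WT mice and at 24.2, 24.2, 26.5 and 24.5 CPM in SA/SA mice. WT mice took both ends of the range, and the SA/SA mice sat within it. The mean was 26.0 ± 2.46 CPM in WT and 24.8 ± 1.12 CPM in SA/SA (SD, n = 4 each), and SA/SA minus WT was -0.066 ± 0.10 in log2 (standard error; adjusted p = 0.993 from edgeR, p = 0.514 by the exact permutation test). Mief2 was at 29.3, 29.6, 30.4 and 25.3 CPM in WT mice and at 28.5, 36.9, 35.9 and 27.0 CPM in SA/SA mice. SA/SA replicates 2 and 3 were above all other mice, whereas SA/SA replicates 1 and 4 lay among the WT mice. With means of 28.6 ± 2.27 and 32.1 ± 5.04 CPM (SD, n = 4 each), Mief2 had the highest fold of the members, 1.12 with a 95% interval from 0.921 to 1.36 (log2 fold change 0.16, standard error 0.13, adjusted p = 0.993; exact permutation p = 0.286). Without SA/SA replicate 2 its log2 fold change was 0.097.

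Rmdn3, the tether to the endoplasmic reticulum, was at 69.4, 64.2, 79.8 and 58.0 CPM in WT mice and at 62.7, 69.3, 65.2 and 65.3 CPM in SA/SA mice. The lowest and highest mice were again both WT. Its mean was 67.8 ± 9.23 CPM in WT and 65.6 ± 2.69 CPM in SA/SA (SD, n = 4 each), and SA/SA minus WT was -0.048 ± 0.11 in log2 (standard error; adjusted p = 0.996 from edgeR, p = 0.743 by the exact permutation test). The value was 0.039 without WT replicate 3, the mouse at 79.8 CPM.

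**Figure D2:**
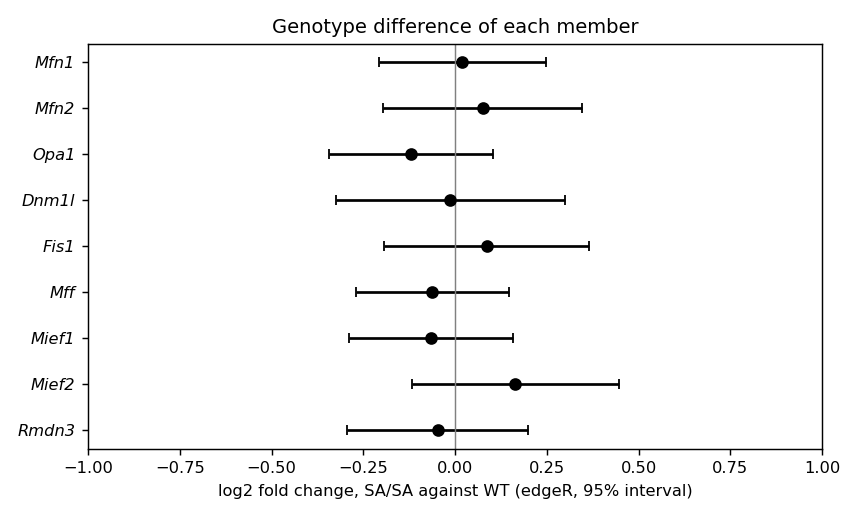
Log2 fold change of SA/SA against WT for each of the 9 genes (points) with its 95% interval from the edgeR fit (bars, 4 mice per genotype). All 9 intervals include 0, with Opa1 lowest at -0.12 and Mief2 highest at 0.16.

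As a group, 4 members had a positive and 5 a negative log2 fold change, with a median of -0.013, where the median over all 14629 genes was -0.0050 and 48.8% were above 0. The standard error exceeded the size of the change for 7 of 9 members, Opa1 and Mief2 being the exceptions. In all 9 genes the WT mice alone, and likewise the SA/SA mice alone, spread over a wider range of log2 CPM than the difference between genotypes. A range of single mice is commonly wider than a difference of means, so this describes the spread and tests nothing. No share of all genes is given for it. The WT range was the larger for 7 of 9 members, and the SA/SA range for Mff and Mief2. The coefficient of variation of the members over the 8 mice was between 6.03% for Mff and 14.2% for Dnm1l with a median of 9.60%, where the median was 11.9% over the 3777 genes whose mean CPM lay in the same range.

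Among the WT mice, replicate 1 was mostly above replicate 4. WT replicate 1 was the highest of the 8 mice for Mfn1, Opa1, Dnm1l and Mff, and WT replicate 4 was below the 8-mouse mean for all 9 genes. The ratio of WT replicate 1 to WT replicate 4 was 1.50 for Dnm1l, 1.25 for Opa1, 1.21 for Mfn1 and 1.21 for Mfn2. It was above 1 for 8 of 9 members, the exception being Fis1 at 0.945, where 49.9% of all genes tested were higher in WT replicate 1 than in WT replicate 4. WT replicates 1 and 4 had the highest (0.11) and the lowest (-0.15) mean deviation of log2 CPM over these same 9 genes. A high count therefore follows from the choice of the pair and is not a test against the share of all genes. These mice also differed in red blood cell transcripts, whose 5 markers summed to 411 CPM in WT replicate 1 and 2647 CPM in WT replicate 4, with the other mice between 951 and 1462 CPM. The part of blood content in the levels of the members was not tested.

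**Figure D3:**
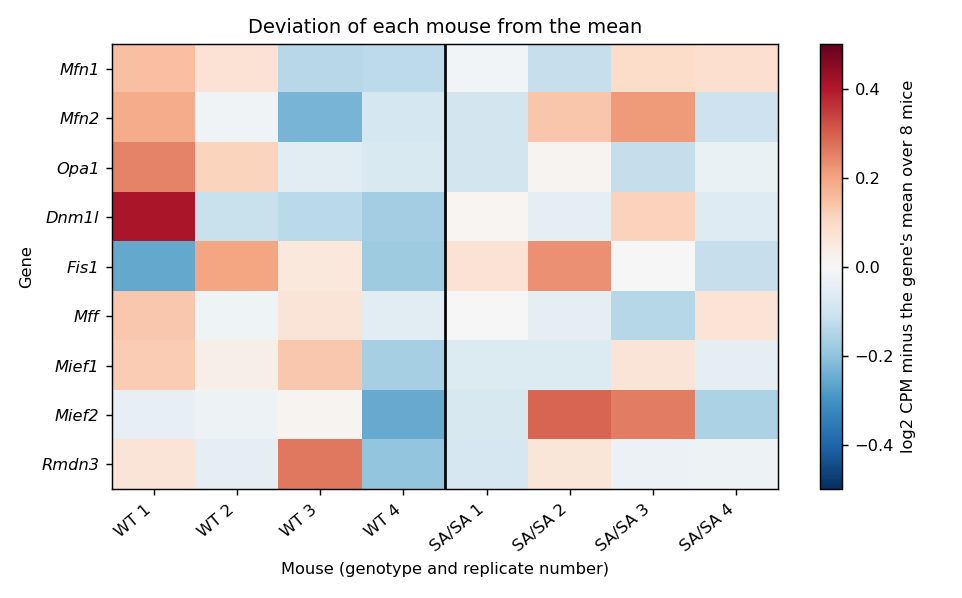
Deviation of log2 CPM from the mean of the 8 mice for each gene (rows) and mouse (columns, WT left and SA/SA right of the line); red is above and blue below the mean. WT replicate 1 reaches 0.41 for Dnm1l and is above the mean for 7 of 9 genes, and WT replicate 4 is below it for all 9.

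The mice carry label numbers that fall in 2 sets. Replicates 1 and 4 of both genotypes have numbers under 200 (low series), replicates 2 and 3 numbers over 800 (high series), and what the numbers stand for is not given in the labels. Within the low series of 2 WT and 2 SA/SA mice, Mfn2 differed by -0.15 in mean log2 CPM and Dnm1l by -0.14, and within the high series by 0.30 and 0.16. The sign of the difference was opposite between the series for 4 of 9 members (Mfn2, Dnm1l, Fis1 and Rmdn3) and for 54.9% of all genes tested. The difference between series was tested as an interaction of genotype and series. No member passed an adjusted p of 0.05 for it in edgeR (background 0%). Mfn2 had an interaction of 0.45 on the log2 scale, with an adjusted p of 0.446 from edgeR (0.0485 before adjustment). It was the 1 member under 0.05 before adjustment, where 11.1% of all genes were. In the same order of series, Fis1 differed by 0.20 and -0.011, and Mief2 by 0.028 and 0.28. The remaining differences were 0.024 and 0.022 for Mfn1, -0.15 and -0.081 for Opa1, -0.0067 and -0.12 for Mff, -0.039 and -0.085 for Mief1 and 0.012 and -0.090 for Rmdn3.

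The high series was compared with the low series over both genotypes. Mief2 was between 25.3 and 29.3 CPM in the low series and between 29.6 and 36.9 CPM in the high series, a log2 difference of 0.26 (unadjusted p = 0.0222, adjusted p = 0.303 from edgeR). It was the 1 member of 9 whose series did not overlap, against 6.85% of all genes. Fis1 ran from 55.9 to 70.2 CPM in the low series and from 66.7 to 78.4 CPM in the high series, a log2 difference of 0.24 (unadjusted p = 0.0389, adjusted p = 0.358). These were the only members at an unadjusted p under 0.05, 2 of 9 against 12.8% of all genes, and no gene was called at an adjusted p of 0.05 (background 0%). For the other members the log2 difference between series lay between -0.10 for Dnm1l and 0.12 for Rmdn3.

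**Figure D4:**
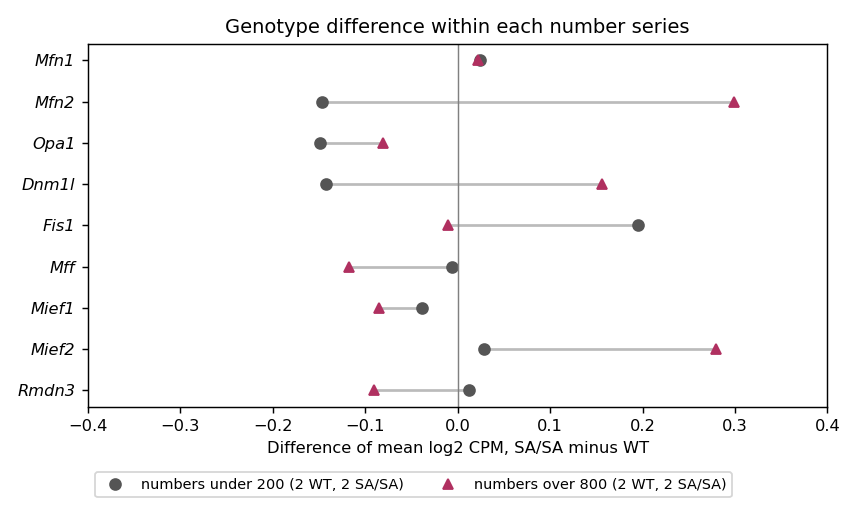
Difference of mean log2 CPM, SA/SA minus WT, for each gene within the mice of low label numbers (circles) and high label numbers (triangles), 2 mice per genotype in each. Mfn2 lies at -0.15 and 0.30, and the symbols of Mfn1 nearly coincide at 0.024 and 0.022.

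Levels can be ordered between genes only per length. As CPM per kilobase of the union of annotated exons, Fis1 was highest at 39.2 ± 4.68, followed by Mfn2 at 28.8 ± 3.21, Rmdn3 at 18.9 ± 1.81, Mief2 at 11.2 ± 1.50, Opa1 at 8.53 ± 0.765, Mfn1 at 7.41 ± 0.586, Dnm1l at 4.47 ± 0.634, Mief1 at 3.13 ± 0.231 and Mff at 2.48 ± 0.149 (SD over 8 mice). The ranges of the 8 mice overlapped between the neighbours Fis1 and Mfn2, Mief2 and Opa1, and Opa1 and Mfn1. Within a mouse, Mief2 was above Opa1 in 8 of 8 mice, and Fis1 above Mfn2 and Opa1 above Mfn1 in 7 of 8 mice each, with mean differences of 2.64 ± 1.73, 10.4 ± 5.78 and 1.12 ± 0.684 CPM per kilobase (SD over 8 mice). The other 5 pairs of neighbours kept their order in every mouse. The order depended on the length used. Per kilobase of the longest transcript that encodes the longest protein, Fis1 (85.6), Mfn2 (34.5) and Rmdn3 (29.7) remained the top 3, Opa1 was at 21.3, Mff at 11.6 and Dnm1l at 10.8, and Mief1 was lowest at 4.93. Per kilobase of the median protein-coding transcript, Rmdn3 came first at 131, before Fis1 at 85.6 and Mfn2 at 46.3. Mfn2 stood above Mfn1 with every length, and Mief2 above Mief1.

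Ratios within a mouse do not depend on library size. The log2 ratio of the CPM of Mfn2 to that of Mfn1 was 1.70 ± 0.0748 in WT and 1.75 ± 0.197 in SA/SA mice (SD, n = 4 each), and the SA/SA mice, from 1.53 to 1.97, enclosed the WT mice. Opa1 relative to Dnm1l was at 1.60 ± 0.160 and 1.48 ± 0.136, and Mfn2 relative to Dnm1l at 2.66 ± 0.153 and 2.73 ± 0.131. For Mief1 relative to Mief2 the log2 ratio was -0.14 ± 0.0498 in WT and -0.36 ± 0.210 in SA/SA mice. WT mice ran from -0.19 to -0.079 and SA/SA mice from -0.61 to -0.14, with SA/SA replicate 4 within the WT range. The genotypes overlapped for each of these 4 ratios.

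Across the 8 mice the members did not vary as 1 block. Of the 36 pairs of members, 25 had a positive Pearson correlation of log2 CPM, with a median of 0.275, and 3 were above 0.7. The highest were Mief1 with Rmdn3 (r = 0.765) and Mfn2 with Dnm1l (r = 0.702), and the lowest was Dnm1l with Fis1 (r = -0.468). These are descriptions over 8 libraries that differ in genotype, label number series and depth. The gene most like each member among all genes tested was Rprd1a for Mfn1 (r = 0.974), Slc30a5 for Mfn2 (r = 0.990), St7l for Opa1 (r = 0.950) and Uso1 for Dnm1l (r = 0.967). For the recruiters it was Cox6a1 for Fis1 (r = 0.984), Chd8 for Mff (r = 0.958), Gm16755 for Mief1 (r = 0.937) and Ppil1 for Mief2 (r = 0.981), and for Rmdn3 it was Dync1i2 (r = 0.970). With 8 libraries and 14629 genes, between 5 genes (Mief1) and 111 genes (Mfn2) had r above 0.9 with a member.

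The wider machinery of mitochondrial shape was followed in 7 lists with 69 genes in the table, of which 67 were tested. None of the 67 passed an adjusted p of 0.05 (background 0%). The log2 fold change was positive for 49 and negative for 18, where 48.8% of all genes tested were above 0. Its median was 0.057 (-0.0050 over all genes). The split by sign was not tested, here or in the single lists. The 1 gene with an unadjusted p under 0.05 was higher in SA/SA mice, against 3.40% of all genes. The 11 genes of the cristae organising system, which joins inner and outer membrane at cristae junctions, had a median of 0.11 with 10 genes positive. The 14 fusion regulators and proteases of OPA1 processing had a median of 0.079 with 11 positive, and the 8 markers of mitochondrial mass had a median of 0.085 with 7 positive. The 9 fission effectors had a median of 0.040 with 7 positive, the 10 ubiquitin ligases and mitophagy receptors 0.074 with 6 positive, the 10 contact proteins of the endoplasmic reticulum 0.023 with 6 positive, and the 5 transport genes -0.048 with 2 positive. No list gene had genotypes that did not overlap, where 2.30% of all genes tested did not overlap.

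Tomm40, which encodes the channel of the outer membrane import complex, was the 1 list gene at an unadjusted p under 0.05. It was at 50.0, 55.9, 42.7 and 43.6 CPM in WT mice and at 57.7, 63.1, 69.7 and 55.2 CPM in SA/SA mice. WT replicate 2 exceeded only SA/SA replicate 4, and the 3 other WT mice were below all SA/SA mice. Its log2 fold change was 0.35 (standard error 0.12, unadjusted p = 0.0141, adjusted p = 0.993 from edgeR; exact permutation p = 0.0571). The gene with the smallest p was Phb, a prohibitin of the inner membrane, among fusion regulators (log2 fold change 0.20, standard error 0.12) and Mtfr1 among fission effectors (-0.16, standard error 0.10). It was Park2, the ubiquitin ligase Parkin, among mitophagy genes (0.54, standard error 0.28), and Pdzd8 among contact proteins (-0.16, standard error 0.11). In the cristae list it was 2410015M20Rik (0.23, standard error 0.14), and in the transport list Trak2, an adaptor for kinesin (-0.10, standard error 0.15). Each of these 6 had an adjusted p of 0.993 and overlapping genotypes.

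**Figure D5:**
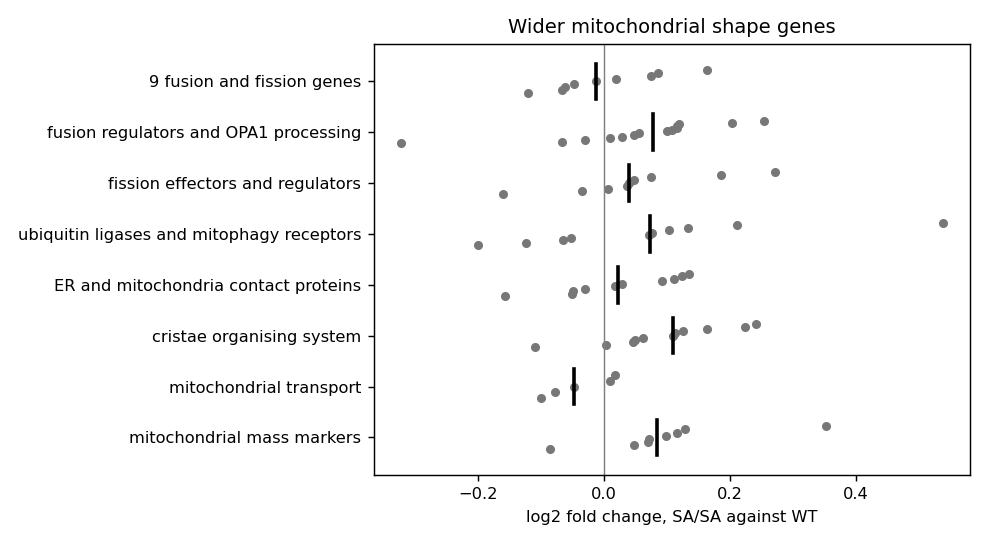
Log2 fold change of SA/SA against WT (edgeR) for the 9 fusion and fission genes and for the genes tested in each of 7 wider lists, 1 point per gene, with the median of each list as a black bar. The medians lie between -0.048 for transport and 0.11 for the cristae organising system, and no point passed an adjusted p of 0.05.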

How the data were processed

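Liver RNA of 8 female mice was sequenced by the authors as stranded mRNA libraries, read as pairs. They deposited estimated counts per gene from salmon, scaled for average transcript length and not normalized for library size. The submitters' processing notes name GRCm38, bcl2fastq, STAR, SAMtools, MultiQC and DESeq2. Versions and the annotation release are not given in the sources used here. Columns were matched to mice by label number.

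Estimated counts were rounded, filtered with filterByExpr and normalized by TMM, and genotypes were compared with edgeR 4.0.16 in R 4.3.3 (quasi-likelihood F test) with Benjamini-Hochberg adjustment over 14629 genes and genotype as the only term. CPM uses TMM-scaled library sizes, and log2 CPM a prior count of 2. Standard errors and 95% intervals came from the F statistic. The exact permutation tests were two-sided on log2 CPM, with a smallest possible p of 0.0286. The labels name the mice as biological replicates. No 2 libraries were copies: chi-square per gene was 40.2 for the most similar pair, far above sampling noise. The edgeR fit with genotype as the only term and the permutation test were tried on simulated data. The other fits were not.

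Members and lists were chosen with earlier results of these data known. Named genes were the 9 members, the gene of smallest p and all genes at an unadjusted p under 0.05 in each list, the gene most correlated with each member, and Plin5. The alternatives were DESeq2 1.42.0, limma-voom (limma 3.58.1), other scalings, other filters (none, or 1 CPM in 4 libraries), blocks, each mouse left out and other gene lengths. Of the table's identifiers, 45143 were in GENCODE M21. Of the genes that overlap members, 1 is not reported here.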

Additional observations from a re-analysis of the deposited data

Results flagged for a closer look

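Each of 18 groups of 4 mice (9 genes, 2 genotypes) was searched for a mouse that stood apart from the other 3. It was found in 2 groups, where chance flags about 1 group in 20. For Dnm1l it was WT replicate 1 with 30.6 CPM, the remaining WT mice having 20.4 to 21.4 CPM. For Mief1 it was SA/SA replicate 3 with 26.5 CPM, the remaining SA/SA mice having 24.2 to 24.5 CPM. SA/SA replicate 3 is also the mouse with 2063 CPM of lymphocyte markers, mostly immunoglobulin transcripts. WT replicate 1 is the mouse with the lowest sum of red blood cell markers, 411 CPM. Whether these contents have a part in either value was not tested.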

How the results depend on the processing

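No member was called under any of the 18 alternatives, and the smallest adjusted p of a member was 0.817 (Mief2 without SA/SA replicate 4). Of 162 combinations of member and alternative, 151 kept their sign and 11 changed it. DESeq2 called 7 of 22309 genes where edgeR called 0 of 14629. With no filter on low counts, edgeR tested 22439 genes and also called 0. Limited to the genes kept by filterByExpr, DESeq2 called 6 of 14603, an alternative added after seeing the data. The share of genes at an unadjusted p under 0.05 was 3.40% in edgeR (497 genes) and 3.14% in DESeq2 (700 genes). It was 4.07% in DESeq2 on the genes kept by filterByExpr (594 genes). The count of members without overlap was 0 to 1 with a mouse left out, the 1 being Dnm1l without WT replicate 1, where 5.70% of all genes did not overlap. The sign changed for Mfn1 with library size alone (-0.012), Dnm1l with limma-voom (0.0011) and with the replicate block (0.0063). With 1 mouse left out, Mfn1 ran from -0.021 to 0.080, Dnm1l from -0.072 to 0.15 and Rmdn3 from -0.12 to 0.039, and these 3 genes changed sign. The 6 others kept their sign but not their size (the mouse left out in parentheses): Mfn2 ran from 0.014 (WT replicate 3) to 0.16 (WT replicate 1), Opa1 from -0.16 (WT replicate 4) to -0.048 (WT replicate 1), Fis1 from 0.023 (WT replicate 1) to 0.17 (WT replicate 2), Mff from -0.095 (SA/SA replicate 4) to -0.022 (WT replicate 1), Mief1 from -0.13 (WT replicate 4) to -0.030 (WT replicate 1) and Mief2 from 0.097 (SA/SA replicate 2) to 0.24 (SA/SA replicate 4). Leaving out both WT replicate 2 (acinar transcripts) and SA/SA replicate 3 (lymphocyte transcripts) called 0 genes and turned no member's sign. This alternative, and the length of the longest-protein transcript, were chosen after seeing the data. The correlations did not decide whether the numbers of the replicates pair the mice. Deviations of same-numbered mice correlated by 0.056, 0.17, -0.11 and 0.13. WT replicates 1, 2 and 4 correlated best with the SA/SA mouse of their number, and SA/SA replicates 1 and 2 with the WT mouse of theirs. WT replicate 3 and SA/SA replicates 3 and 4 did not. The replicate block called 0 genes, with 579 at an unadjusted p under 0.05. The 4 mice per genotype limit what could be seen to the intervals given.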
